A study of Homo sapiens with 30 samples.

Results

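Amino acid supply and tRNA synthetase genes were followed in SW1783 cells, an established human astrocytoma line, after 24 h with ethanol extracts of 4 Korean herbal formulas. The set is a list of 35 named genes, all of which were found, with 1 row each, among the 60675 entries of the deposited RNA-seq table. It holds 5 genes of serine, glycine and folate one-carbon synthesis, 6 of other amino acid synthesis, 7 amino acid transporters and 17 cytosolic tRNA synthetases. Members were chosen by name, and all 35 passed the filter on low counts in every fit.

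Cells keep protein synthesis going by drawing amino acids through the plasma membrane, by building the ones they can make, and by loading each one onto its tRNA with a dedicated synthetase. When an amino acid runs short, or when protein folding, heme or redox balance is disturbed, kinases phosphorylate the initiation factor eIF2, and the transcription factor ATF4 is then translated more. ATF4 binds C/EBP-ATF response elements near many of these genes, so synthesis enzymes, transporters and synthetases are known as a shared set of ATF4 targets in many cell types. Among brain tumours, gliomas are well studied for their LAT1 and cystine transporters.

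The extracts were Soshiho-tang and Yijin-tang (3 libraries at each concentration), Okbyeongpung-san (2 libraries at each) and Soyo-san (1 library at each), every one at 20, 100 and 500 µg/mL, and 3 libraries came from cells given DMSO vehicle, 0.1% by the sample labels. The series text names 2% DMSO instead, and which of the values holds was not given in the sources used here. All groups were the same line, and no label says that replicates came from separate cultures, so p-values describe how these libraries vary, possibly for technical reasons alone. The 30 libraries held 23.9 to 33.1 M estimated counts each (1 M is 1000000 counts), with a median of 27.4 M. Astrocyte markers were close to absent, with GFAP at most 0.205, AQP4 at most 0.0702 and S100B at most 0.252 CPM (counts per 1000000 counts of a library), while VIM was at 3754 to 5589 CPM and the mesenchymal collagen gene COL1A1 at 1557 to 4039 CPM. Of 3 leukocyte markers CD3E reached at most 0.0361 CPM and PTPRC 12.9 CPM, while CD68, a lysosomal protein also made by other cells, was at 122 to 245 CPM. Of 3 epithelial markers EPCAM and CDH1 reached at most 0.205 and 0.288 CPM, while the keratin KRT18 was at 49.1 to 153 CPM. Of the values, 9.24 to 10.09% were not whole numbers in the 27 extract libraries, against 10.6 to 10.73% in the vehicle libraries, which carry a library name series of their own, so each extract is first compared within its own series, 500 with 20 µg/mL. Replicate 3 of Yijin-tang at 500 µg/mL stood apart from replicates 1 and 2, with 10.61% of counts from mitochondrial genes, against 6.7 and 7.35%.

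Levels below are CPM after TMM scaling over all 30 libraries, and a gene is said to rise or fall where edgeR's quasi-likelihood test gave an adjusted p under 0.05 over all genes tested. Per kilobase of exon, the vehicle level of the 35 genes ran between 1.26 CPM for CBS and 95.9 CPM for SLC1A5. Second in that order was SLC38A2 at 58.2 CPM per kb, followed by IARS1 at 49.9, GARS1 at 48.9, SLC7A5 at 44.7 and AARS1 at 43.9 CPM per kb. The lowest after CBS were CTH at 2.77, PHGDH at 3.95, SLC1A4 at 4.87 and GPT2 at 5.08 CPM per kb. Exon length here joins the exons of all annotated transcripts, 9217 bases for PHGDH and 2188 for PSAT1, so this order depends on the annotation. Before that division CTH, at a vehicle mean of 6.69 CPM, lay below CBS at 8.57 CPM. Together the 35 genes took 0.696 to 0.725% of all counts at 500 µg/mL Soshiho-tang, against 0.491 to 0.534% at 20 µg/mL. With Okbyeongpung-san they took 0.608 and 0.634% at 500 µg/mL, against 0.505 and 0.523% at 20 µg/mL. With Yijin-tang the shares overlapped, at 0.486 to 0.537% for 500 µg/mL and 0.492 to 0.514% for 20 µg/mL.

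Soshiho-tang at 500 µg/mL raised 27 of the 35 genes over 20 µg/mL and lowered 3. The median log2 fold change of the 35 was 0.52, beside 0.01 for all 16872 genes tested, of which 28.9% were called in either direction, 14.6% higher and 14.2% lower. All 5 serine and one-carbon genes rose, as did 5 of 6 other synthesis genes, 5 of 7 transporters and 12 of 17 synthetases. One gene of other synthesis, 1 transporter and 1 synthetase fell. The 27 genes that rose had groups that did not overlap, every library at 500 lying above every library at 20 µg/mL. These genes were picked by a test on the same libraries, so the separation restates the calls and is no further evidence. Mitochondrial genes took 6.93 to 7.79% of counts at 500 and 6.37 to 9.03% at 20 µg/mL, so that share overlapped. Marker sums of other cell types moved too: the 3 epithelial markers, nearly all KRT18, summed to 49.1 to 52.7 CPM at 500 against 136 to 147 CPM at 20 µg/mL, and the 2 mesenchymal markers to 1592 to 1816 CPM against 3040 to 3320 CPM. The 3 leukocyte markers, nearly all CD68, summed to 199 to 229 CPM at 500 against 135 to 191 CPM at 20 µg/mL, with PTPRC at 4.18 to 4.76 CPM against 12.3 to 12.9 CPM. The part of these markers in the results was not tested.

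**Figure D1:**
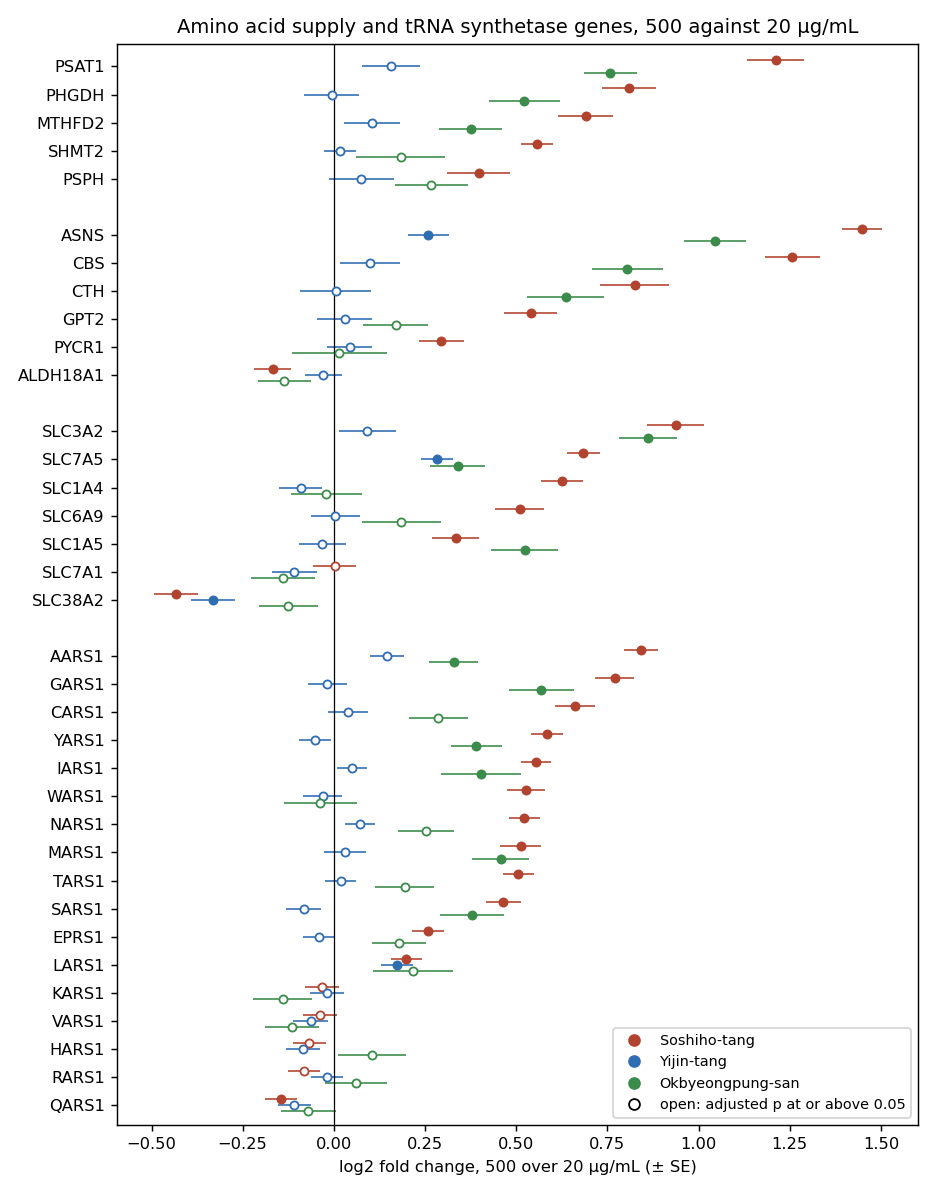
Log2 fold change (± standard error) of each of the 35 genes at 500 over 20 µg/mL, by role from the top: serine and one-carbon synthesis, other synthesis, transporters and synthetases. Filled points passed an adjusted p of 0.05; with Soshiho-tang 27 genes lie to the right of 0 and passed, with Yijin-tang 3 and with Okbyeongpung-san 15.

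The response element known from the promoters of such genes was looked for in the RefSeq windows (assembly GRCh38.p14) that reach 250 bases before to 50 bases after each annotated start, because so many members moved together. The motif was TGATGNAA, read on both strands. It was present in 3.62% of 35116 windows, and 4.46% of 27305 genes had a window with it. Of the 28 members with a window, 12 had it. Shown here are the 5 members with the largest fold changes among those that rose and had the match before the start, then 3 chosen after the matches were seen, with the motif in capitals. Each is read on the strand that holds the motif.
ASNS, chr7:97872458-97872487, minus strand: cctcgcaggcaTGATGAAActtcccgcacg
AARS1, chr16:70289675-70289704, plus strand: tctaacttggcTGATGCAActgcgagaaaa
GARS1, chr7:30594834-30594863, minus strand: ggctcggagcaTGATGAAAtcgccgcgtaa
IARS1, chr9:92293692-92293721, plus strand: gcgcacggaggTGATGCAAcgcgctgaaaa
SLC1A5, chr19:46784893-46784922, minus strand: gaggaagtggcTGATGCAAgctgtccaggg
SLC3A2, chr11:62881725-62881748, minus strand: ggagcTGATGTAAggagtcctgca
SLC1A4, chr2:64989381-64989410, minus strand: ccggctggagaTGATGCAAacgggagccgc
SLC7A1, chr13:29595663-29595692, minus strand: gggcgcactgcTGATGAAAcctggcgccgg

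In ASNS the motif began 68 bases before the start of its RefSeq window's transcript, in AARS1 187, in SLC1A5 97, in GARS1 33 and in IARS1 13 bases before it. These starts differ from the gene ends of GENCODE release 29. By that annotation the motifs of ASNS, SLC1A5, GARS1 and IARS1 lie inside the gene, and that of AARS1 lies before it. Counted over the 12 matches, 8 read TGATGCAA and 7 began within 20 bases of the start. Of the 12 members with a match 11 rose with Soshiho-tang, the exception being SLC7A1, and their median log2 fold change was 0.59. Of the 16 members with a window and no match, 10 rose and the median was 0.49. This split of the members was not tested. Over all genes tested, 24.8% of the 318 with a match and 16.2% of the 11380 without one rose with Soshiho-tang. With Okbyeongpung-san the shares were 11% of 317 and 5.61% of 11288. These shares include the members themselves, so the 318 hold the 12 members with a match, of which 11 rose. The shares were not tested against each other. A match describes the letters of a window and shows no binding.

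The serine pathway makes serine from a glycolytic intermediate and passes its carbon on to folate. PSAT1, the aminotransferase of its second step, stood at 166, 174 and 160 CPM at 500 µg/mL Soshiho-tang, against 76, 75.4 and 64.2 CPM at 20 µg/mL. Its log2 fold change was 1.21 ± 0.08 (standard error, edgeR's quasi-likelihood test, adjusted p = 1.05e-10). PHGDH, the dehydrogenase that opens the pathway, had 63.5, 64 and 56.7 CPM at 500, against 36.1, 34 and 35.1 CPM at 20 µg/mL, a log2 fold change of 0.81 ± 0.07 (edgeR, adjusted p = 2.18e-08). The groups lay far apart for both. MTHFD2, a mitochondrial folate dehydrogenase, rose by 0.69 on the log2 scale, SHMT2, which splits serine into glycine and a folate-bound carbon, by 0.56, and PSPH, the phosphatase of the last step, by 0.40.

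ASNS, which makes asparagine out of aspartate and glutamine, had the largest fold change of the 35. It lies on chromosome 7 at 97852118 to 97872542 on the minus strand (GRCh38, GENCODE release 29). Its level was 155, 163 and 145 CPM at 500 µg/mL Soshiho-tang, against 56, 57.9 and 55.8 CPM at 20 µg/mL, so the lowest library at 500 was more than double the highest at 20. The log2 fold change was 1.45 ± 0.06 (edgeR's quasi-likelihood test, adjusted p = 2.17e-14).

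CBS and CTH are the consecutive enzymes that turn homocysteine into cysteine. CBS, the gene of lowest level per kilobase, had 18.7, 20.5 and 18.8 CPM at 500, against 8.56, 7.65 and 8.11 CPM at 20 µg/mL, a log2 fold change of 1.26 ± 0.08 (edgeR, adjusted p = 3.71e-11). CBS shares reads with its near-identical copy CBSL, so its counts are uncertain; with both rows summed the log2 fold change was 1.27. CTH had 10.8, 12.5 and 10 CPM at 500, against 6.6, 5.89 and 6.4 CPM at 20 µg/mL, and rose by 0.825 ± 0.094 on the log2 scale (edgeR, adjusted p = 5.64e-07). Neither gene's groups overlapped. GPT2, a mitochondrial alanine aminotransferase, rose by 0.54 and PYCR1, the last enzyme of proline synthesis, by 0.295 on the log2 scale. ALDH18A1, which starts proline synthesis from glutamate, went the other way, at 116, 116 and 121 CPM at 500 against 130, 141 and 125 CPM at 20 µg/mL. Its fall of -0.17 on the log2 scale (edgeR, adjusted p = 0.0161) did not hold when replicate 1 or 2 at 500 or replicate 2 at 20 µg/mL was left out, with values of -0.157, -0.156 and -0.116.

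Among transporters, the heavy chain SLC3A2 and its light chain SLC7A5 form the exchanger LAT1, which brings in leucine and other large neutral amino acids. SLC3A2 was at 252, 253 and 254 CPM at 500 µg/mL Soshiho-tang, against 136, 140 and 121 CPM at 20 µg/mL, a log2 fold change of 0.94 ± 0.08 (edgeR, adjusted p = 5.45e-09). SLC7A5 was at 318, 333 and 310 CPM at 500, against 198, 199 and 201 CPM at 20 µg/mL, and rose by 0.68 ± 0.05 on the log2 scale (edgeR, adjusted p = 1.41e-10). In neither gene did the groups come near each other. SLC1A4 and SLC1A5, exchangers of small neutral amino acids and of glutamine, rose by 0.625 and 0.33, and the glycine transporter SLC6A9 by 0.51 on the log2 scale. SLC7A1, a carrier of arginine and lysine, had 172, 163 and 167 CPM at 500 and 164, 177 and 160 CPM at 20 µg/mL, with a log2 difference of 0.00 ± 0.06.

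SLC38A2 fell, the one transporter of the 7 to do so. It encodes SNAT2, a sodium-coupled carrier of small neutral amino acids that is known as an ATF4 target induced by amino acid withdrawal. It had 298, 296 and 308 CPM at 500 µg/mL Soshiho-tang, against 427, 423 and 367 CPM at 20 µg/mL, a log2 fold change of -0.43 ± 0.06 (edgeR's quasi-likelihood test, adjusted p = 9.52e-06). Its means by concentration ran 406, 342 and 301 CPM at 20, 100 and 500 µg/mL, with SDs of 33.8, 19.4 and 6.51 CPM (n = 3 each). The difference of -0.25 ± 0.06 between 100 and 20 µg/mL did not pass the test (edgeR, adjusted p = 0.412).

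Each cytosolic tRNA synthetase loads 1 amino acid, glutamyl-prolyl synthetase EPRS1 a pair of them. AARS1, for alanine, was at 360, 363 and 352 CPM at 500 µg/mL Soshiho-tang, against 191, 215 and 193 CPM at 20 µg/mL, a log2 fold change of 0.84 ± 0.05 (edgeR, adjusted p = 1.17e-11). GARS1, for glycine, was at 392, 396 and 366 CPM at 500, against 227, 218 and 233 CPM at 20 µg/mL, a log2 fold change of 0.77 ± 0.05 (edgeR, adjusted p = 4.38e-10). Both left a wide gap between the groups. Behind them came CARS1 (cysteine) at 0.66, YARS1 (tyrosine) at 0.58, IARS1 (isoleucine) at 0.55, WARS1 (tryptophan) at 0.53, NARS1 (asparagine) at 0.52, MARS1 (methionine) and TARS1 (threonine) at 0.51, and SARS1 (serine) at 0.46 on the log2 scale. EPRS1 rose by 0.26 and LARS1, for leucine, by 0.20.

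Not all synthetases moved. KARS1 (lysine), VARS1 (valine), HARS1 (histidine) and RARS1 (arginine) did not pass the test, with log2 differences of -0.03, -0.04, -0.07 and -0.08 and standard errors of 0.04 to 0.05. KARS1, for example, had 155, 162 and 157 CPM at 500 and 157, 161 and 167 CPM at 20 µg/mL. QARS1 (glutamine) had 121, 127 and 131 CPM at 500, against 136, 147 and 136 CPM at 20 µg/mL, a log2 fold change of -0.145 ± 0.044 (edgeR, adjusted p = 0.0168). That call was lost without the filter on low counts (-0.146) and without replicate 1 at 500 (-0.117) or replicate 2 at 20 µg/mL (-0.108). Of the 7 synthetases of the multi-synthetase complex, in which several synthetases are held on a scaffold, 4 rose and 1 fell, with a median log2 fold change of 0.20. Of the 10 outside it, 8 rose and none fell, with a median of 0.52. This split was made after the values were seen and was not tested.

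**Figure D2:**
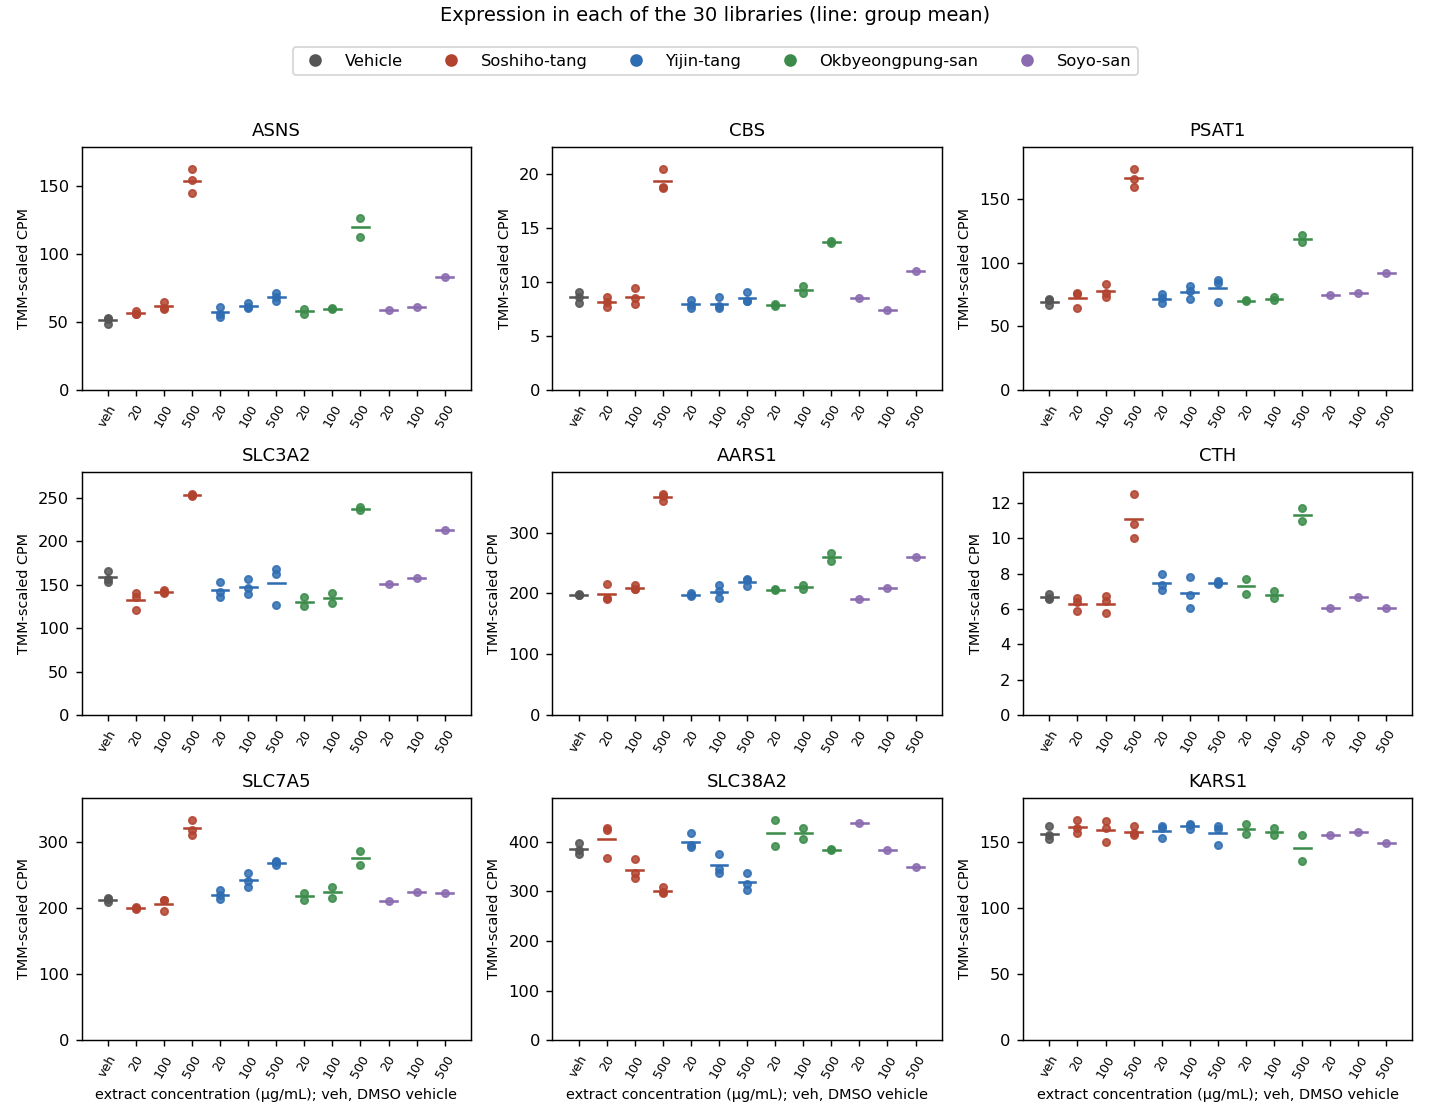
TMM-scaled CPM of 9 of the genes in each of the 30 libraries (points) with group means (lines); concentrations run low to high, with vehicle first. ASNS, CBS, PSAT1, SLC3A2, AARS1 and CTH stand high at 500 µg/mL Soshiho-tang and Okbyeongpung-san, SLC38A2 is lowest at 500 µg/mL Soshiho-tang, and KARS1 stays between 136 and 167 CPM throughout.

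At 100 µg/mL Soshiho-tang the 35 genes lay near their 20 µg/mL levels. Between 100 and 20 µg/mL none of the 35 genes was called by edgeR's quasi-likelihood test, 2 had an unadjusted p under 0.05, and DESeq2 called 1; of all genes, 0.0711% were called, 0.00593% higher and 0.0652% lower. ASNS averaged 56.5 ± 1.16, 61.4 ± 2.67 and 154 ± 8.61 CPM at 20, 100 and 500 µg/mL (SD, n = 3 each). PSAT1 averaged 71.9 ± 6.64, 77.4 ± 5.12 and 167 ± 6.92 CPM, and AARS1 200 ± 13.2, 210 ± 4.17 and 358 ± 5.64 CPM, at the same concentrations. The median log2 difference of the 35 genes between 100 and 20 µg/mL was 0.01, and its range was -0.25 to 0.12.

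With Yijin-tang 3 of the 35 genes rose and 1 fell at 500 over 20 µg/mL, beside 5.64% of all genes called (2.7% higher, 2.94% lower), and the median log2 difference of the 35 was 0.01. SLC7A5 had 264, 269 and 270 CPM at 500 µg/mL Yijin-tang, against 219, 227 and 214 CPM at 20 µg/mL, a log2 fold change of 0.28 ± 0.05 (edgeR, adjusted p = 0.000408). ASNS had 68.4, 71.3 and 65.7 CPM at 500, against 56, 54 and 61.4 CPM at 20 µg/mL, a log2 fold change of 0.26 ± 0.06 (edgeR, adjusted p = 0.00655). The groups did not overlap in either gene. LARS1 had 275, 277 and 272 CPM at 500, against 240, 246 and 244 CPM at 20 µg/mL, with a log2 fold change of 0.17 ± 0.04 (edgeR, adjusted p = 0.0209). SLC38A2 fell here too, to 336, 314 and 303 CPM at 500 µg/mL, against 417, 393 and 388 CPM at 20 µg/mL, a log2 fold change of -0.33 ± 0.06 (edgeR, adjusted p = 0.00166).

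Only 2 of these 4 calls, SLC7A5 and SLC38A2, held when replicate 2 of Yijin-tang at 20 µg/mL was left out or when the fit kept only the groups compared. LARS1 lost its call in 8 of the alternatives tried, with values of 0.165 to 0.18. SLC3A2 had 168 and 162 CPM in replicates 1 and 2 of Yijin-tang at 500 µg/mL and 127 CPM in replicate 3, the library with more mitochondrial counts. Without that replicate 5 genes were called, PSAT1 joining the 4. Between 100 and 20 µg/mL of Yijin-tang edgeR's quasi-likelihood test called none of the 35 (3 with an unadjusted p under 0.05, none by DESeq2), beside 0.00593% of all genes, 1 gene in all.

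At 500 µg/mL the Soshiho-tang and Yijin-tang libraries differed in 29 of the 35 genes, 28 higher and 1 lower with Soshiho-tang, beside 25.2% of all genes called, 12.5% higher and 12.8% lower. The median log2 difference was 0.51. CBS averaged 19.3 ± 1.03 CPM in Soshiho-tang libraries, against 8.52 ± 0.508 CPM in Yijin-tang libraries (SD, n = 3 each), a log2 difference of 1.19 ± 0.08 (edgeR, adjusted p = 7.87e-11). ASNS, with a mean of 154 CPM against 68.5 CPM, differed by 1.17 ± 0.05 (edgeR, adjusted p = 5.21e-13). PSAT1 differed by 1.06 ± 0.08 on the log2 scale, with 166, 174 and 160 CPM against 86.8, 84.3 and 69.2 CPM. GARS1 differed by 0.82 ± 0.05, with 392, 396 and 366 CPM against 204, 216 and 233 CPM. In none of these 4 genes did the extracts overlap, and without replicate 3 of Yijin-tang 27 of the 35 were called. ALDH18A1 was lower with Soshiho-tang by a log2 difference of -0.14 (edgeR, adjusted p = 0.0465), a call lost in 9 of the alternatives tried, with values of -0.165 to -0.104.

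At the lower concentrations few of these genes separated the extracts. At 100 µg/mL 1 of the 35 was called, beside 0.753% of all genes (0.273% higher, 0.48% lower): SLC7A5 had 212, 195 and 212 CPM with Soshiho-tang, against 231, 240 and 253 CPM with Yijin-tang, a log2 difference of -0.22 ± 0.05 (edgeR, adjusted p = 0.0151). That call was lost without replicate 2 of Soshiho-tang or replicate 3 of Yijin-tang at 100 µg/mL. At 20 µg/mL edgeR called none (3 with an unadjusted p under 0.05, none by DESeq2), beside 0.13% of all genes (0.0237% higher, 0.107% lower). The difference between the 500 over 20 µg/mL responses, Soshiho-tang minus Yijin-tang, was called for 24 of the 35 genes, all higher, beside 13.6% of all genes (6.63% higher, 6.99% lower), and for 24 without replicate 3 of Yijin-tang at 500 µg/mL. It was 1.19 ± 0.08 for ASNS (edgeR, adjusted p = 8.21e-10), 1.16 ± 0.11 for CBS, 1.05 ± 0.11 for PSAT1 and 0.85 ± 0.11 for SLC3A2 on the log2 scale. For SLC38A2 it was -0.10 and was not called, so the fall of that gene was not shown to differ between the extracts.

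**Figure D3:**
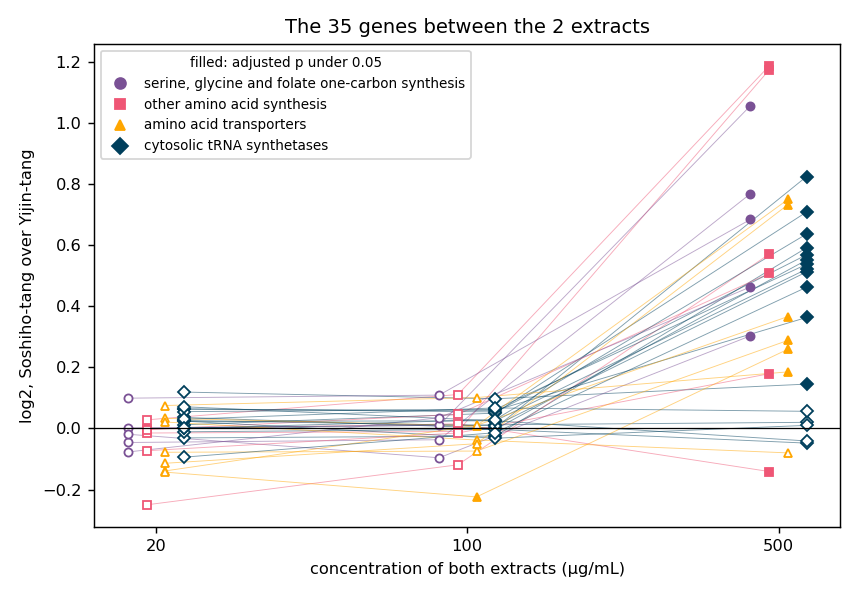
Log2 difference of each of the 35 genes, Soshiho-tang over Yijin-tang, at 20, 100 and 500 µg/mL; lines join a gene's values and filled symbols passed an adjusted p of 0.05. At 20 and 100 µg/mL the genes lie between -0.25 and 0.12, and at 500 µg/mL between -0.14 and 1.19.

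Okbyeongpung-san at 500 µg/mL raised 15 of the 35 genes over 20 µg/mL and lowered none, beside 10.3% of 16643 genes called (5.21% higher, 5.1% lower). The median log2 fold change of the 35 was 0.25. Genes that rose were 3 of 5 in serine and one-carbon synthesis, 3 of 6 in other synthesis, 3 of 7 transporters and 6 of 17 synthetases. All 15 were among the 27 that rose with Soshiho-tang, that is 100% of the shorter list and 55.6% of the longer one. The longer list holds 27 of the 35 genes, so most of the shorter list would be found on it by length alone. The overlap of the 2 extracts over all genes was not counted, and the overlap of the members was not tested. ASNS had 127 and 113 CPM at 500 µg/mL Okbyeongpung-san, against 59.8 and 56.1 CPM at 20 µg/mL, a log2 fold change of 1.05 ± 0.09 (edgeR's quasi-likelihood test, adjusted p = 0.000141). SLC3A2 had 236 and 239 CPM at 500, against 125 and 136 CPM at 20 µg/mL, a log2 fold change of 0.86 ± 0.08 (edgeR, adjusted p = 0.00025). The libraries of the 2 concentrations stood well apart in both genes.

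Among the synthesis genes, both enzymes of the step to cysteine and 2 of the 3 serine pathway enzymes, PSAT1 and PHGDH, rose with Okbyeongpung-san, and PSPH was not called. CBS had 13.6 and 13.8 CPM at 500, against 7.91 and 7.73 CPM at 20 µg/mL, a log2 fold change of 0.81 ± 0.10 (edgeR, adjusted p = 0.000967), or 0.79 with CBSL added. PSAT1 had 122 and 116 CPM at 500, against 71 and 69.5 CPM at 20 µg/mL, a log2 fold change of 0.76 ± 0.07 (edgeR, adjusted p = 0.000271). CTH had 11.7 and 11 CPM at 500, against 6.83 and 7.73 CPM at 20 µg/mL, a log2 fold change of 0.64 ± 0.11 (edgeR, adjusted p = 0.00482). The 2 concentrations did not overlap in any of the 3 genes. The other 10 genes that rose were PHGDH, MTHFD2, SLC1A5, SLC7A5, AARS1, GARS1, IARS1, MARS1, SARS1 and YARS1, with log2 fold changes of 0.33 to 0.57. SLC38A2 had 383 and 384 CPM at 500 and 444 and 390 CPM at 20 µg/mL, a log2 difference of -0.125 that did not pass the test, and the difference of its response from that to Soshiho-tang, 0.31, was not called either (edgeR, adjusted p = 0.0584).

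Each Okbyeongpung-san concentration had 1 library in batch E of the sample titles, replicate 2, and 1 in batch D, replicate 3. All 15 genes that rose were higher at 500 than at 20 µg/mL within both batches, ASNS by 1.09 in E and 1.00 in D and SLC3A2 by 0.92 and 0.82 on the log2 scale. The 15 were picked by a test on these same libraries, so their shared direction in both batches is no separate check. With the batch as a block, chosen after the data were seen, 17 genes were called. The count was 7 without replicate 2 at 20 µg/mL and 6 in a fit of the 2 concentrations alone. The shares of all genes called in these alternative fits are not given here, so the counts cannot be read as particular to the 35. The mitochondrial share of counts was 5.68 and 6.8% at 500 against 8.11 and 8.36% at 20 µg/mL, and the 3 epithelial markers summed to 63.2 and 67.1 CPM at 500 against 127 and 135 CPM at 20 µg/mL. Their part in these differences was not tested. At 100 against 20 µg/mL edgeR called none of the 35 genes (1 with an unadjusted p under 0.05, none by DESeq2) and 0% of all genes. ASNS averaged 58 ± 2.61, 59.8 ± 0.381 and 120 ± 10.4 CPM at 20, 100 and 500 µg/mL (SD, n = 2 each).

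The response to Okbyeongpung-san was set against that to Soshiho-tang in a fit of 27 libraries, as the difference of the 500 over 20 µg/mL changes. It was called for 11 of the 35 genes, all lower with Okbyeongpung-san, beside 7.43% of 17396 genes (4.25% higher, 3.17% lower). The largest were SLC1A4 at -0.64 ± 0.10 (edgeR, adjusted p = 0.00028), WARS1 at -0.56 ± 0.11 (adjusted p = 0.00147) and AARS1 at -0.51 ± 0.08 (adjusted p = 0.000112). SLC1A4 had 27.3 and 32.5 CPM at 500 and 30.7 and 29.9 CPM at 20 µg/mL Okbyeongpung-san, against 45.4, 47.9 and 45.2 CPM at 500 and 29.2, 30.4 and 30.2 CPM at 20 µg/mL Soshiho-tang. WARS1 had 224 and 279 CPM at 500 and 265 and 249 CPM at 20 µg/mL Okbyeongpung-san, against 331, 344 and 313 CPM at 500 and 217, 223 and 247 CPM at 20 µg/mL Soshiho-tang. In both genes the Okbyeongpung-san concentrations overlapped and the Soshiho-tang ones did not.

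SLC1A4 and WARS1 were also the 2 of the 35 genes whose Okbyeongpung-san change had opposite signs in the 2 batches, -0.17 in E and 0.12 in D for SLC1A4, and -0.245 in E and 0.16 in D for WARS1 on the log2 scale. AARS1 had 266 and 254 CPM at 500 and 207 and 205 CPM at 20 µg/mL Okbyeongpung-san, against 360, 363 and 352 CPM and 191, 215 and 193 CPM at those concentrations of Soshiho-tang, so it was higher at 500 with both extracts. The difference was -0.40 for ASNS, -0.45 for CBS and -0.45 for PSAT1, all called. It was not called for SLC3A2 (-0.07 ± 0.12), MARS1 (-0.05 ± 0.09), CTH (-0.18 ± 0.15) or SLC1A5 (0.195 ± 0.111). Of the 11 calls 7 were left without replicate 2 of Okbyeongpung-san at 500 or replicate 3 at 20 µg/mL, 6 without replicate 2 of Soshiho-tang at 500 µg/mL, and 3 when only the groups compared were fitted.

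Set against Yijin-tang, the Okbyeongpung-san response was higher for 12 of the 35 genes and lower for none, beside 10.7% of all genes called (5.59% higher, 5.11% lower). It differed by 0.79 ± 0.09 for ASNS (edgeR, adjusted p = 3.94e-06), 0.78 ± 0.12 for SLC3A2 and 0.71 ± 0.12 for CBS on the log2 scale, and by 0.19 ± 0.08 for AARS1, which was not called. These 3 differences of responses reuse the same 500 and 20 µg/mL libraries.

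**Figure D4:**
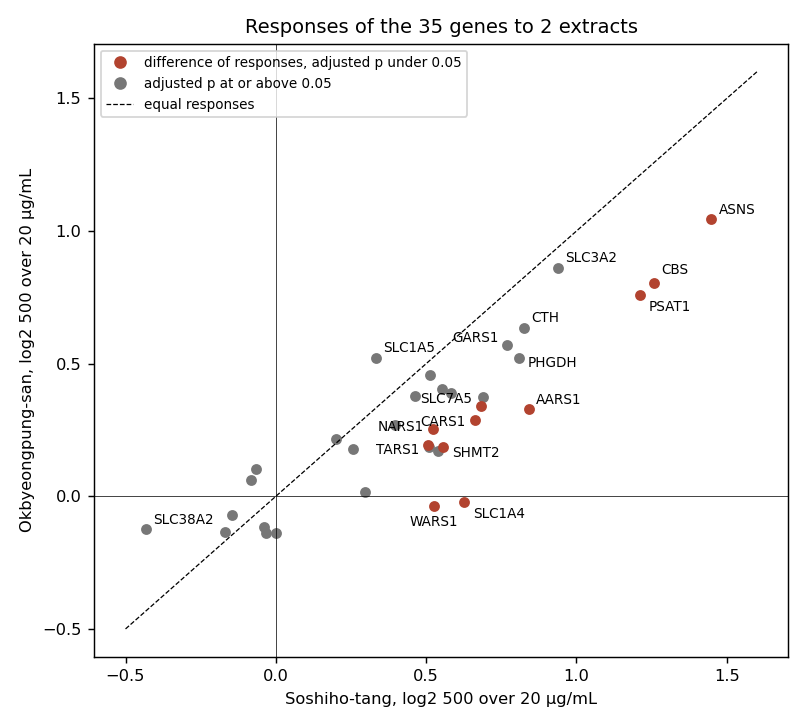
Log2 fold change at 500 over 20 µg/mL for each of the 35 genes, Okbyeongpung-san on the vertical axis and Soshiho-tang on the horizontal, with the line of equal responses dashed. The 11 red points, whose responses differed at an adjusted p of 0.05, all lie under the line, with SLC1A4 and WARS1 near 0 for Okbyeongpung-san.

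Soyo-san had 1 library per concentration, so its ratios have no replicate check and no test. At 500 over 20 µg/mL 3 of the 35 genes were past a log2 ratio of 0.32 upward and 1 downward, beside 1.84% and 1.98% of the 9818 genes that averaged at least 10 CPM over both libraries. Ratios are on the log2(CPM + 1) scale, where low genes change less. SLC3A2 had 213 CPM at 500 against 151 CPM at 20 µg/mL, ASNS 83.1 against 58.9 CPM and AARS1 260 against 190 CPM, with log2 ratios of 0.50, 0.49 and 0.45. SLC38A2 was the one downward, at 349 CPM against 437 CPM and a log2 ratio of -0.33. The median ratio of the 35 was 0.07 on the log2 scale. PSAT1 had 91.7 CPM at 500 against 74.8 CPM at 20 µg/mL and WARS1 244 against 217 CPM, both inside that limit. CBS, at 11 against 8.53 CPM, and CTH, at 6.05 against 6.07 CPM, averaged under 10 CPM and were not counted. At 100 over 20 µg/mL none of the 35 was past the limit, beside 0.378% of all genes upward and 0.418% downward.

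Comparisons with vehicle cannot be told apart from the library series, and they share the same 3 vehicle libraries. By the sample titles all vehicle, Soshiho-tang and Yijin-tang libraries are batch E, all Soyo-san libraries are batch D, and Okbyeongpung-san has 1 library of each per concentration. At 500 µg/mL Soshiho-tang 28 of the 35 genes were higher than vehicle and 1 lower, beside 43.9% of all genes called (22.8% higher, 21.1% lower). ASNS was at 155, 163 and 145 CPM with Soshiho-tang, against 53, 52.5 and 48.4 CPM in vehicle, a log2 fold change of 1.59 ± 0.06 (edgeR, adjusted p = 5.64e-15), and PSAT1 differed by 1.265 ± 0.079. SLC38A2 was lower, at 298, 296 and 308 CPM against 375, 382 and 397 CPM in vehicle, with a log2 fold change of -0.355 ± 0.061. With Okbyeongpung-san at 500 µg/mL 21 were higher and 1 lower than vehicle, beside 24.7% of all genes (13.3% higher, 11.4% lower). ASNS differed by 1.24 ± 0.08 (edgeR, adjusted p = 1.38e-05) and PSAT1 by 0.80 ± 0.07, while VARS1, at 169 and 175 CPM against 205, 199 and 207 CPM, was lower by -0.23, a call lost in 6 of the alternatives tried.

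Yijin-tang at 500 µg/mL had 9 of the 35 genes higher and 5 lower than vehicle, beside 31.3% of all genes (16% higher, 15.2% lower). ASNS differed by 0.41 ± 0.06 (edgeR, adjusted p = 1.31e-05) and SLC7A5 by 0.34 ± 0.05, and SLC38A2 was lower by -0.275 ± 0.061 on the log2 scale. SLC1A4 was lower by -0.30 ± 0.06, with 28.3, 28.3 and 25.9 CPM at 500 µg/mL Yijin-tang, against 34.5, 35.2 and 31.7 CPM in vehicle. At 20 µg/mL 5 genes were higher and 4 lower with Soshiho-tang, beside 21.8% of all genes (11.3% higher, 10.5% lower), and 4 were higher and 3 lower with Yijin-tang, beside 19.8% (10.6% higher, 9.2% lower). RARS1 had 168, 162 and 163 CPM at 20 µg/mL Soshiho-tang and 160, 158 and 166 CPM at 20 µg/mL Yijin-tang, against 143, 132 and 132 CPM in vehicle. TARS1 had 248, 247 and 250 CPM with Soshiho-tang and 245, 240 and 247 CPM with Yijin-tang at 20 µg/mL, against 206, 210 and 206 CPM in vehicle. SLC1A5 was on the other side, at 263, 279 and 238 CPM and 277, 268 and 279 CPM with those extracts, against 330, 311 and 318 CPM in vehicle. RARS1 differed from vehicle by 0.27 ± 0.05 with Soshiho-tang and 0.25 ± 0.05 with Yijin-tang on the log2 scale, although neither extract's 500 over 20 µg/mL comparison called it. TARS1 differed by 0.26 and 0.235, and SLC1A5 by -0.30 and -0.22. Also lower than vehicle were SLC3A2 with Soshiho-tang (-0.26) and GPT2 with Yijin-tang (-0.23); these 2 calls, and that of SLC1A5 with Yijin-tang, were lost in 2 to 4 of the alternatives tried. The 9 and 7 genes called at 20 µg/mL were 5 and 4 when vehicle replicate 1 was left out. With Okbyeongpung-san at 20 µg/mL edgeR called none (7 with an unadjusted p under 0.05, 5 by DESeq2), beside 2.24% of all genes (1.18% higher, 1.06% lower). With the batch of the titles as a block, 10 of the 35 were called in that comparison. The 2.24% belongs to the fit without the block, and the share of all genes with the block is not given here. With Soyo-san, whose difference from vehicle cannot be told apart from the batch either, 5 genes were past the same limit above the vehicle mean at 500 µg/mL, beside 5.59% of all genes upward and 6.45% downward, namely ASNS, SLC3A2, PSAT1, AARS1 and NARS1, and none at 20 µg/mL, beside 4.07% upward and 4.58% downward.

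Related genes outside the 35 were counted in the same Soshiho-tang comparison, 500 over 20 µg/mL, where 28.9% of all genes were called. Among the remaining cytosolic synthetases and scaffold genes AIMP2, a scaffold protein of the synthetase complex, rose by 0.38 and its partner EEF1E1 by 0.21 on the log2 scale. Of 17 mitochondrial synthetases 4 rose and 1 fell, with a median log2 difference of 0.09 and PARS2 highest at 0.465. Of 10 other folate enzymes 5 rose and 2 fell. ALDH1L2, a mitochondrial formyl-folate dehydrogenase, was at 52.6, 55 and 46.4 CPM at 500, against 24, 24.5 and 24.6 CPM at 20 µg/mL, a log2 fold change of 1.075 ± 0.081 (edgeR, adjusted p = 1.23e-09). TYMS, which makes thymidylate, fell by 0.46 on the log2 scale.

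Of 17 other transporters 6 rose and 4 fell. SLC7A11, the cystine-glutamate exchanger that pairs with SLC3A2, was at 305, 303 and 313 CPM at 500 µg/mL Soshiho-tang, against 143, 148 and 125 CPM at 20 µg/mL, a log2 fold change of 1.15 ± 0.07 (edgeR, adjusted p = 5.53e-11). SLC38A1, another glutamine carrier, rose by 0.64 and SLC43A1, a leucine carrier, by 0.67, while SLC38A4 fell by 1.24 on the log2 scale. Of 18 other amino acid enzymes 4 rose and 4 fell, led by ASS1 (argininosuccinate synthesis) at 0.65 and ARG2 (arginase) at -0.80. Across these 5 lists the median log2 differences were 0.03 to 0.16.

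Regulators of the stress response rose as well. Of 16 stress response regulators 10 rose and none fell with Soshiho-tang. ATF4 itself was at 328, 325 and 283 CPM at 500, against 151, 130 and 155 CPM at 20 µg/mL, a log2 fold change of 1.098 ± 0.068 (edgeR, adjusted p = 5.31e-11). TRIB3, a pseudokinase induced by ATF4, was at 126, 136 and 115 CPM at 500, against 26.8, 24.4 and 21.9 CPM at 20 µg/mL, a log2 fold change of 2.36 ± 0.08. DDIT3, which encodes CHOP, rose by 1.88 and CHAC1, a glutathione-degrading enzyme, by 1.82 on the log2 scale. With Okbyeongpung-san, where 10.3% of all genes were called, 8 of the 16 rose and none fell. TRIB3 was at 59.4 and 49.3 CPM at 500, against 22.7 and 21.4 CPM at 20 µg/mL, a log2 fold change of 1.299 ± 0.100 (edgeR, adjusted p = 8.22e-05), DDIT3 rose by 1.05 and ATF4 by 0.45. With Yijin-tang, where 5.64% of all genes were called, 2 rose, DDIT4 by 0.48 and DDIT3 by 0.29, and ATF5 fell by 0.18, while ATF4 had 138, 145 and 149 CPM at 500 and 153, 144 and 147 CPM at 20 µg/mL.

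With Okbyeongpung-san SLC7A11 had 364 and 320 CPM at 500, against 182 and 141 CPM at 20 µg/mL, a log2 fold change of 1.08 ± 0.13 (edgeR, adjusted p = 0.000866). SLC38A4 fell by 1.18 on the log2 scale. ALDH1L2 had 34.6 and 30.1 CPM at 500 and 34 and 26.2 CPM at 20 µg/mL, so its libraries overlapped, whereas with Soshiho-tang they did not. Of the mitochondrial synthetases edgeR called none with Okbyeongpung-san (2 of 17 with an unadjusted p under 0.05), and of the other amino acid enzymes none (6 of 18). Of all 16643 genes tested in that comparison 10.3% were called and 4310 had an unadjusted p under 0.05. Yijin-tang raised the mitochondrial synthetases AARS2, for alanine, and TARS2, for threonine, by 0.28 and 0.20 on the log2 scale.

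**Figure D5:**
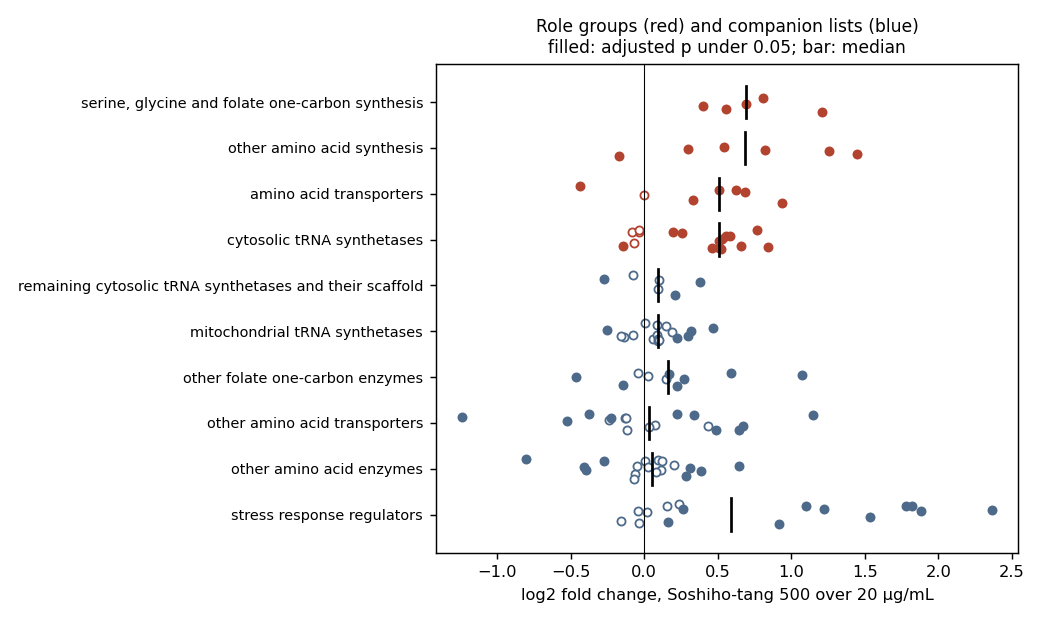
Log2 fold change at 500 over 20 µg/mL Soshiho-tang for the 4 role groups of the 35 genes (red) and 6 lists of related genes (blue); each point is 1 gene, filled where the adjusted p was under 0.05, and bars mark medians. The role groups have medians of 0.51 to 0.69 and the stress regulators 0.59, with the other lists at 0.03 to 0.16.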

How the data were processed

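Total RNA of SW1783 cells was made into directional mRNA libraries and sequenced as paired-end reads, per the labels' protocols. The submitters' processing notes name FastQC 0.11.9, Trim Galore 0.6.5, STAR 2.7.3a and RSEM 1.3.3 with GRCh38; the gene models and strand setting are not given in the sources used here. The authors deposited RSEM estimated counts per gene, unscaled, in 1 table. These were rounded to whole numbers. Gene coordinates come from GENCODE release 29, which holds 57055 of the 60675 entries.

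edgeR 4.0.16 (R 4.3.3) was used with filterByExpr (minimum count 10, minimum total 15), TMM scaling and glmQLFit and glmQLFTest, and p-values were adjusted by Benjamini-Hochberg over all genes tested, called under 0.05. Soshiho-tang, Yijin-tang and vehicle were fitted together (21 libraries), Okbyeongpung-san with vehicle (9 libraries), and differences of responses with Okbyeongpung-san in 27 libraries. Standard errors are the log2 fold change over the root of F. The 24 pairs of libraries within a group differed by 3.21 to 39.47 times their counting noise, so none was counted as a repeat. The script was tested on simulated data with 200 changed genes.

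Alternatives were RLE factors, no filter, DESeq2 1.42.0, a replicate block, only the groups compared, all 27 libraries, and each library left out. Replicate numbers of Soshiho-tang, Yijin-tang and vehicle share no batch or day in the labels, and deviations of same-numbered libraries correlated at -0.338 to 0.587, so they were not taken as pairs. In Okbyeongpung-san the number marks the batch of the titles, so it pairs the libraries (correlations of 0.238 for 500 with 20 and 0.63 for 100 with 20 µg/mL). The reported Okbyeongpung-san tests did not use this pairing, which entered only in the alternatives with a replicate or batch block. The members, role groups, related gene lists and rules were chosen with earlier results of these data known. Named were the called genes of largest change, up to 8 higher and 3 lower in Soshiho-tang and fewer elsewhere, and every other member could be named with its own value; SLC7A11, ATF4 and the synthetase complex were described further after their values were seen. Soyo-san ratios used log2(CPM + 1). Water extracts and wortmannin, which the series text names, were not analysed here, and some genes of the related lists are not reported by name.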

Additional observations from a re-analysis of the deposited data

Results flagged for a closer look

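Responses to 2 extracts differed by a test of the difference itself, the contrast of the 500 over 20 µg/mL changes in edgeR's quasi-likelihood test. For Soshiho-tang minus Yijin-tang, 24 of the 35 genes differed, beside 13.6% of all genes. ASNS stood at 1.19, CBS at 1.16 and PSAT1 at 1.05 on the log2 scale. For Okbyeongpung-san minus Yijin-tang, 12 genes differed, beside 10.7% of all genes, with ASNS at 0.79, SLC3A2 at 0.78 and CBS at 0.71. For Okbyeongpung-san minus Soshiho-tang, 11 genes differed, beside 7.43% of all genes, with SLC1A4 at -0.64, WARS1 at -0.56 and AARS1 at -0.51. In the last pair, SLC1A4 and WARS1 had Okbyeongpung-san changes of opposite sign in batches E and D, and AARS1 was higher at 500 µg/mL in both batches. With the replicate number as a block, which in Okbyeongpung-san marks the batch, 13 genes differed in that pair and SLC1A4 stood at -0.638. The share of all genes in that fit is not given here.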

How the results depend on the processing

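Of 234 recomputed counts of called genes, 214 stayed within 1.5 times the reported count. The share of all genes called in each alternative is not given beside these counts, here or where such counts appear above. Of 574 recomputed values of named genes, 532 kept direction and side of the threshold, 42 kept direction but lost the call, in 10 gene and comparison pairs, and none reversed. In fits of only the groups compared, with fewer residual degrees of freedom, the counts were 2 of a reported 4 for Yijin-tang 500 against 20 µg/mL, 6 of 15 for Okbyeongpung-san 500 against 20, 0 of 1 for Soshiho-tang against Yijin-tang at 100, and 3 of 11 for the response of Okbyeongpung-san minus Soshiho-tang. For Soshiho-tang 100 against 20 µg/mL, reported as 0, the count was 1 without the filter and 1 by DESeq2. For Okbyeongpung-san 20 µg/mL against vehicle, also 0, it was 3 without the filter, 5 by DESeq2, 5 with 27 libraries, 2 with only the groups compared and 10 with the batch as a block, an alternative chosen after seeing the data; the cause was not tested.

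Leaving out single libraries gave 28 to 30 genes for Soshiho-tang 500 against 20 µg/mL, 2 to 5 for Yijin-tang, 7 to 17 for Okbyeongpung-san, 25 to 27 for Soshiho-tang against Yijin-tang at 500 and 0 to 1 at 100 µg/mL. It gave 5 to 9 for Soshiho-tang and 4 to 6 for Yijin-tang at 20 µg/mL against vehicle, and 6 to 11 for Okbyeongpung-san minus Soshiho-tang. With the replicate block the counts were 30 for Soshiho-tang, 4 for Yijin-tang and 15 for Okbyeongpung-san at 500 against 20 µg/mL, and no count moved by over 1.5 times. In that block vehicle replicate 3, of batch E, shares a number with the batch D libraries of Okbyeongpung-san, whereas the batch block keeps them apart; the batch block gave 17 for Okbyeongpung-san at 500 against 20 µg/mL. Okbyeongpung-san has 2 libraries per concentration and Soyo-san 1, which limits both.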
